A study of Mus musculus with 20 samples.

Results

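The cyclic nucleotide phosphodiesterases examined here are Pde3a, Pde4a, Pde4b, Pde4d, Pde5a, Pde7a, Pde7b, Pde8a, Pde8b and Pde10a, 10 of the 24 phosphodiesterase genes measured among 18820 genes on the arrays. A gene was taken as the probe set whose annotation holds that symbol alone, and for Pde4d, the 1 member with more than 1 such probe set, as the brighter of its 2. The members were selected on earlier results of these arrays, Pde7b and Pde8a by their difference in level between the cell lines, so levels by line are described below without a test. The study measured total RNA of mHypoE-46 (E46) and mHypoA-2/12 (A2/12), immortalized mouse hypothalamic cell lines that the labels call neuronal, each of them 1 line. The labels call E46 serotonin sensitive and A2/12 unresponsive, and the design names the neuropeptide Npy as the study's outcome. All cells were held 4 hours without serum and then exposed for 24 hours, in 5 groups of 4 arrays. E46 has controls and serotonin groups labelled 1 and 100 µg/ml, and A2/12 has controls and a serotonin group labelled 100 µg/ml. Titles gave the doses used here, and the description of the E46 serotonin arrays gives them the other way round. Whether replicates were grown as separate cultures is not in the labels, so every p-value measures the spread between these arrays, which may be technical.

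Phosphodiesterases break down cAMP and cGMP, the second messengers made by adenylyl and guanylyl cyclases, and so limit how strongly and how long protein kinase A, protein kinase G and cyclic nucleotide-gated channels are engaged. The Pde4, Pde7 and Pde8 subfamilies are selective for cAMP and Pde5 for cGMP, while Pde3 and Pde10 enzymes accept both. Serotonin receptors act on this pathway through G proteins that raise or lower cAMP, and in hypothalamic neurons cAMP signalling bears on the expression of neuropeptides.

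Values are deposited log2 expression levels, on which a difference of 1 is 2-fold. After a change or a difference of responses, ± gives limma's standard error, which is narrower than the 95% interval. After a group mean, ± gives the SD. Levels of different genes come from different probes and are not compared. Levels were set against a background, the 95th percentile of 1157 odorant and vomeronasal receptor genes in each group (4.35 to 4.66). All 10 members lay above it in at least 1 group. Arrays correlated with each other at 0.927 to 0.995, and 4 arrays (E46 control 1, E46 with serotonin labelled 1, replicates 1 and 3, and A2/12 control 2) had an upper quartile under 8.2, against up to 8.31 elsewhere. Of 11 measured neuron markers, 6 lay above background in both control groups, while Rbfox3, Snap25, Elavl4, Nefl and Nefm did not in any group. The astrocyte markers Gfap and Aqp4 did not either. Fibroblast markers were above background for 6 of 7 genes in every group.

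The promoters of Pde7b and Pde8a are shown because these members set the lines apart most. Each line gives the 250 bases before the transcription start in RefSeq (GRCm38.p6), read 5′ to 3′ on the gene's strand, with any TGACG, the core of the cAMP response element, in capitals. The Pde7b window is chr10:20548329-20548578, minus strand, and the Pde8a window is chr7:81213015-81213264, plus strand.
Pde7b: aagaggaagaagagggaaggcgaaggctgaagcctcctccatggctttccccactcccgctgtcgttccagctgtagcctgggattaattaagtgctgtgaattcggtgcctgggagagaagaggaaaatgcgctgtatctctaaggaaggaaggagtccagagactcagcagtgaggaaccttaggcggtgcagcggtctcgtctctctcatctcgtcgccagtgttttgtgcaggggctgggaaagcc
Pde8a: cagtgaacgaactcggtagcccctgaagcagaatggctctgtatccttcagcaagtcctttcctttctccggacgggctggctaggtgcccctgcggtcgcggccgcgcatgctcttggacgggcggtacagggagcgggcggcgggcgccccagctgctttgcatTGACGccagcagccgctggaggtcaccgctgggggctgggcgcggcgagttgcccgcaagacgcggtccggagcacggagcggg
The Pde8a window holds 1 TGACG, 84 bases before the start, and the Pde7b window none. G and C made up 68.8% of the Pde8a window and 55.2% of the Pde7b window. On both strands, TGACG was found in 3 of 18 such windows of 250 bases of the 8 members with a RefSeq window (16.7%, in Pde4a, Pde4b and Pde8a). Over all genes it was found in 17.8% of 32851 windows of the same length, so by windows the shares were close. By genes it was 3 of 8 members, a larger share than 5347 of 27025 genes, on few members. Members with several windows count more than once by windows. By genes they have more windows in which to match, 18 for 8 members against 32851 for 27025 genes. TGACGTCA, the full element, which contains TGACG, and TGATGCAA were found in 0 of the 18, against 1.55% and 0.791% of all windows. A match is a description of these letters and not a measured binding site.

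**Figure D1:**
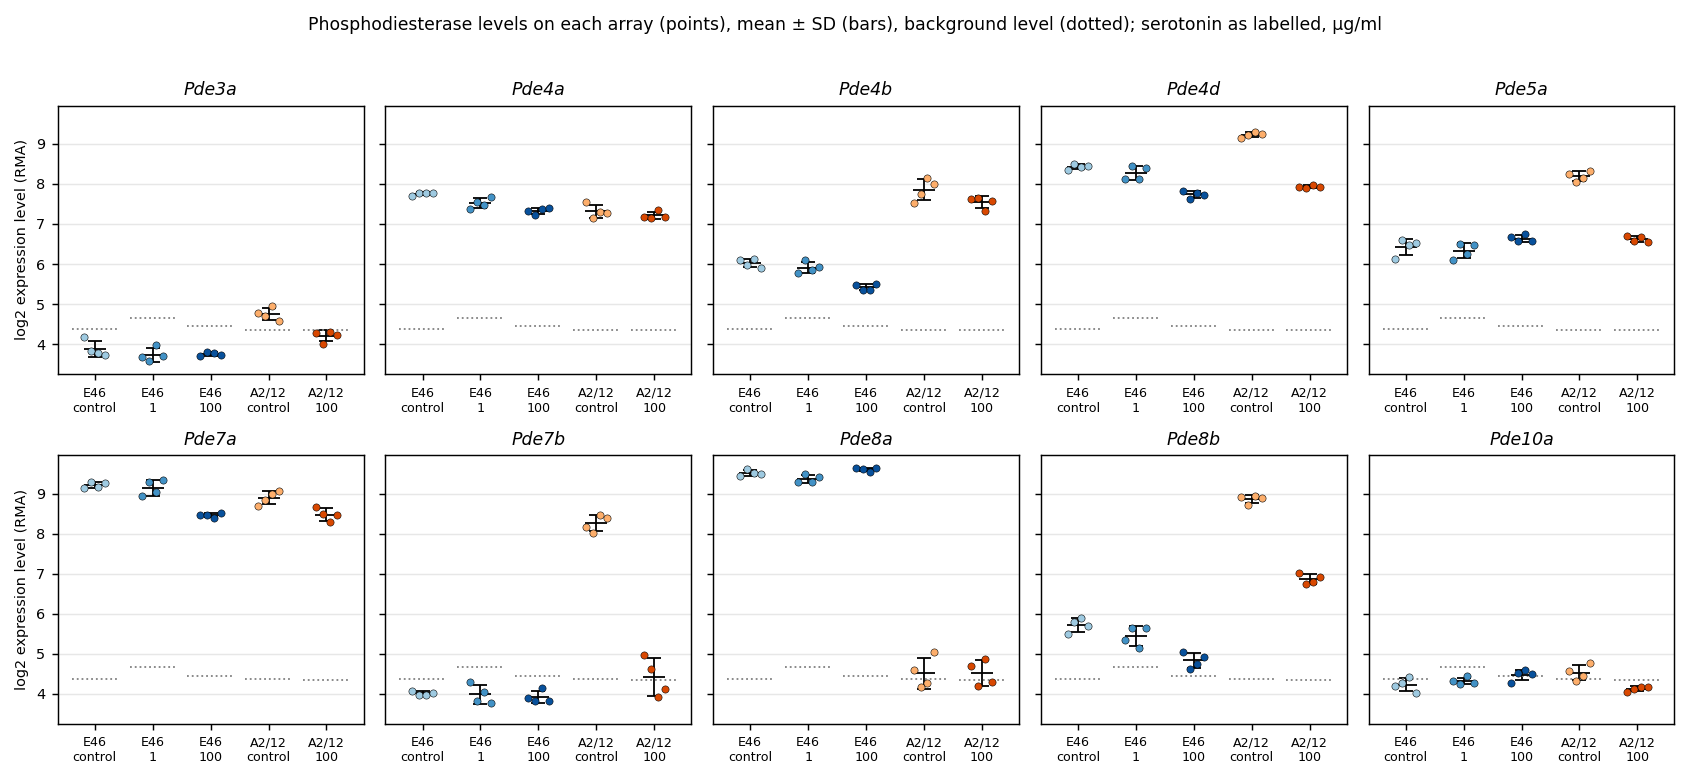
Each panel plots 1 phosphodiesterase. The y axis is the log2 expression level, points are single arrays, bars are the mean ± SD of 4 arrays, and dotted lines are the background of each group. Pde8a lies between 9.28 and 9.64 on all E46 arrays and between 4.17 and 5.04 on all A2/12 arrays, and Pde7b stands above 8 on the A2/12 control arrays alone.

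Pde7b, a high-affinity cAMP-specific enzyme, was detected in A2/12 and not in E46. Its 4 A2/12 control arrays read 8.17, 8.02, 8.47 and 8.39. The E46 controls read 4.08, 3.97, 3.98 and 4.03, the E46 arrays with serotonin labelled 100 read 3.90, 3.83, 4.15 and 3.83, and those labelled 1 read 4.31, 3.82, 4.05 and 3.77. All 12 E46 arrays lay below the background of their group. Measured against that background, A2/12 controls were at least 14.8-fold higher than E46 controls (measured means 8.26 in A2/12 and 4.01 in E46).

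With serotonin, Pde7b in A2/12 read 4.98, 4.61, 3.93 and 4.13, so that 2 of 4 arrays were above background and every array lay below every control. The mean was 3.85 (log2) or 14.4-fold below that of the controls. The control arrays of this comparison also carried the difference between lines for which Pde7b was chosen, so its change and the difference of responses that contains it, 3.76, are given as a description, with no test. In E46 all groups were below background, where no fall could be read, and at the labelled 100 no difference between the lines could be read above it.

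Pde8a, another high-affinity cAMP-specific enzyme, showed the opposite preference: E46 was high and A2/12 was near background. The E46 controls read 9.44, 9.60, 9.52 and 9.49, and the A2/12 controls 4.59, 4.17, 4.28 and 5.04, with 2 of these 4 arrays above background. The control means differed by 4.99 (31.9-fold) with E46 higher. The gap was as wide with serotonin. The E46 arrays labelled 100 read 9.64, 9.61, 9.55 and 9.63, those labelled 1 read 9.28, 9.50, 9.29 and 9.40, and the A2/12 arrays with serotonin read 4.70, 4.20, 4.88 and 4.30. The difference between lines was 5.09 (33.9-fold) at the labelled 100. Against controls the mean of Pde8a differed by 0.09 in E46, where the arrays overlapped. In A2/12 the means were 4.52 in both groups, at a level where no fall could be read. These are descriptions too, since the same control arrays chose the gene.

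Pde8b, the paralog of Pde8a, was higher in A2/12. Its control arrays read 8.92, 8.72, 8.94 and 8.89 in A2/12 and 5.49, 5.80, 5.90 and 5.70 in E46, a difference of -3.14 (E46 minus A2/12, 8.84-fold, the 217th largest). With serotonin labelled 100 they read 7.02, 6.75, 6.78 and 6.92 in A2/12 and 5.06, 4.63, 4.75 and 4.92 in E46. Both sets of serotonin arrays lay below all of their controls. Pde8b fell by 2.00 ± 0.12 in A2/12 (3.99-fold, adjusted p = 1.00e-11) and by 0.88 ± 0.12 in E46 (1.84-fold, adjusted p = 3.12e-06). The responses differed by 1.11 ± 0.17 (limma interaction, adjusted p = 3.43e-05). E46 controls lay only 1.27 above the background of the labelled 100, so a fall in E46 as large as that in A2/12 could not have been read, and this limit was not separated from the difference. The lines stayed apart, at -2.03 with serotonin.

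Levels by line of all members are a description, since the choice of Pde7b and Pde8a used this contrast. The control arrays of the lines did not overlap for 9 of 10 members (35.6% of all genes), Pde10a being the exception. Over all 12 E46 and all 8 A2/12 arrays, 3 members did not overlap, Pde4b, Pde8a and Pde8b (10.9% of all genes). A2/12 controls were higher for 7 members, and E46 minus A2/12 was -3.14 for Pde8b, -1.83 for Pde4b, -1.77 for Pde5a and -0.80 for Pde4d. Beside Pde7b, Pde3a lay below background on all E46 control arrays and was at least 1.30-fold higher in A2/12 controls (measured means 3.88 in E46 and 4.75 in A2/12). Pde10a was above background on 1 of 4 E46 control arrays and on 3 of 4 A2/12 control arrays, with measured means of 4.23 and 4.53. E46 controls were higher for 3, with 4.99 for Pde8a, 0.44 for Pde4a and 0.32 for Pde7a. Pde7b was below background in E46 while its paralog Pde7a was above it in all 5 groups.

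**Figure D2:**
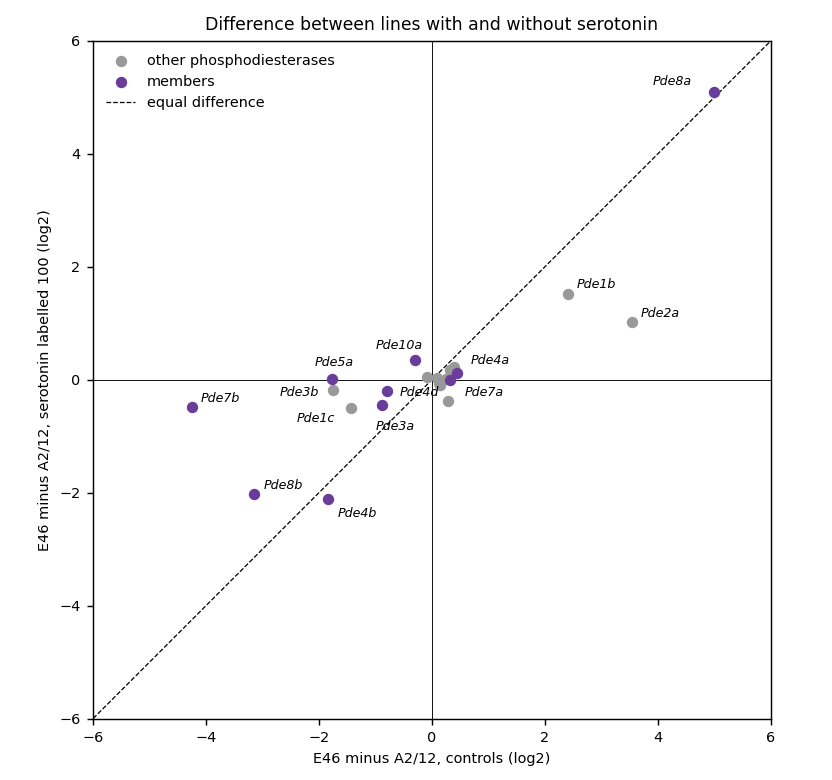
The x axis is the log2 difference of E46 minus A2/12 in controls and the y axis the same difference at serotonin labelled 100; purple points are the 10 members and grey points the 14 other phosphodiesterases. Pde8a sits on the dashed line of equal difference (4.99 and 5.09), while Pde5a (-1.77 and 0.01) moved toward 0. Points show measured values, and those of Pde7b and Pde3a rest on E46 arrays that were all below background.

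At the labelled 100, E46 and A2/12 were closer together than in controls for 7 of 10 members, for 13 of the 14 other phosphodiesterases and for 50.5% of all genes. Pde3a and Pde7b are 2 of these 7, and their distances in E46 are measured below background. Genes that start far apart come closer more often: of those with a control difference of at least 1, this held for 3 of 5 members, 4 of 4 other phosphodiesterases and 77.3% of 1505 genes. Pde8a and Pde4b were the members with such a difference that did not come closer. For Pde4b the difference was -1.83 in controls and -2.12 at the labelled 100.

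Most members that passed the test were lower with serotonin labelled 100. In A2/12, 8 of 10 passed and all 8 fell (called at an adjusted p below 0.05, which 45.9% of all genes passed, 21.1% by falling and 24.8% by rising). In E46, 6 of 10 passed, 5 fell and 1 rose (39.6% of all genes, 19.3% falling and 20.3% rising). Larger shares passed among the 13491 genes above background in at least 1 group, which include all 10 members. With these alone tested, 8695 passed in A2/12, 3957 falling and 4738 rising. In E46 it was 7561, with 3598 falling and 3963 rising. Pde4b, Pde4d, Pde7a and Pde8b fell in both lines, and Pde10a was called in opposite directions. The rise of Pde10a in E46 lay near background and missed the threshold in 18 of 26 alternative settings. The median change of the 10 members was -0.48 in A2/12 and -0.28 in E46, against 0.0017 and -0.0035 over all genes. Changes of at least 2-fold were seen for 4 of 10 members in A2/12 (10.8% of all genes) and for 0 of 10 in E46 (6.43%). The arrays of serotonin and control groups did not overlap for 7 members in A2/12 (43.3% of all genes) and 5 in E46 (40.4%). Pde7b is in the counts for A2/12 although its call is a description. Without Pde7b and Pde8a, whose control levels chose them, 7 of 8 members fell in A2/12 and 5 fell and 1 rose in E46, with medians of -0.48 and -0.52. Changes of at least 2-fold were then seen for 3 of 8 in A2/12, and arrays did not overlap for 6 of 8 in A2/12 and 5 of 8 in E46. These are bulk RNA levels, so fewer cells of a kind and less RNA per cell cannot be told apart.

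**Figure D3:**
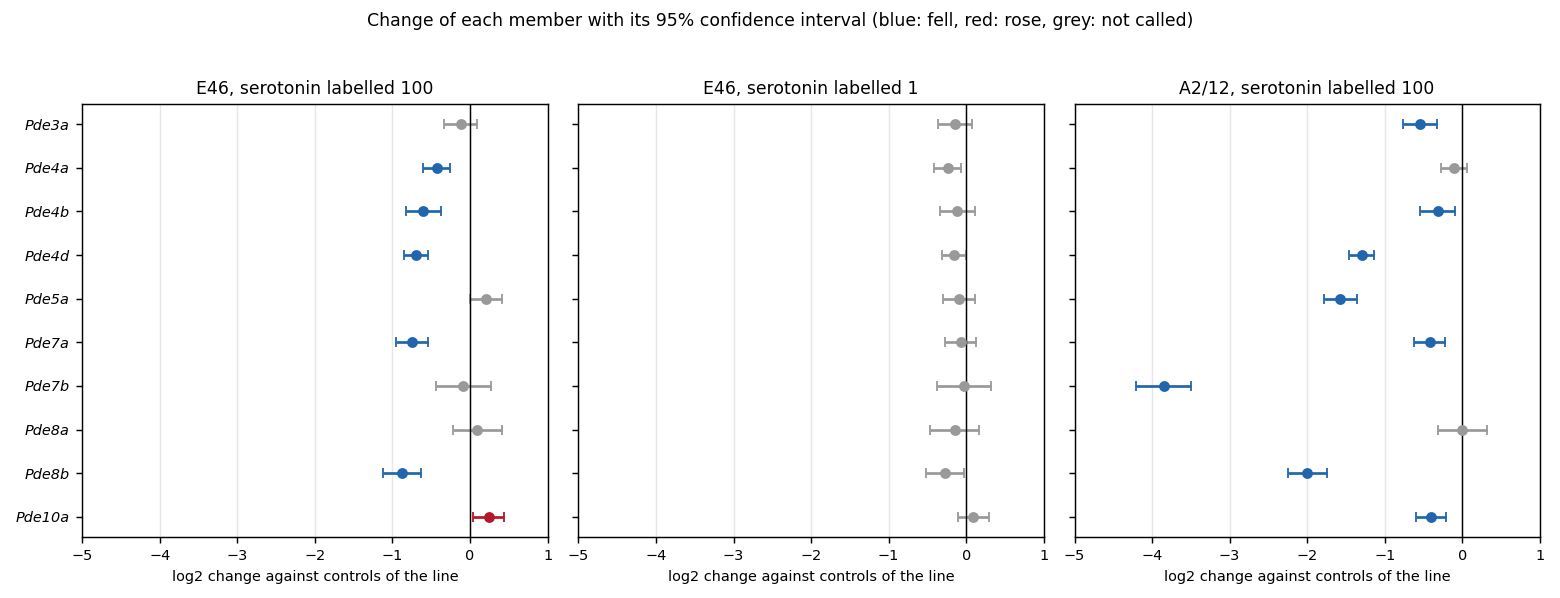
Points are log2 changes of each member against the controls of its line and bars are 95% confidence intervals, for both serotonin groups of E46 and for A2/12. Blue marks members that fell, red those that rose and grey those that did not pass the test: 8 are blue in A2/12, Pde7b, a description, among them, 5 are blue and 1 red in the E46 group labelled 100, and all 10 are grey in the group labelled 1.

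The Pde4 enzymes are the cAMP-specific targets of rolipram, and their long forms are activated by protein kinase A. Pde4d read 9.16, 9.22, 9.29 and 9.25 in A2/12 controls and 7.91, 7.90, 7.98 and 7.93 with serotonin. In E46 it read 8.36, 8.50, 8.42 and 8.45 in controls and 7.81, 7.63, 7.78 and 7.72 at the labelled 100. The groups did not overlap in either line. Pde4d fell by 1.30 ± 0.08 in A2/12 (2.46-fold, adjusted p = 6.83e-12) and by 0.69 ± 0.08 in E46 (1.62-fold, adjusted p = 1.59e-07), and the responses differed by 0.60 ± 0.11 (adjusted p = 0.000206). The dimmer probe set of Pde4d changed by -2.22 and -0.84, from means of 6.86 to 4.64 in A2/12 and of 5.64 to 4.80 in E46, so both probe sets moved the same way.

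Pde4b, which is expressed in neurons and immune cells, read 6.10, 5.97, 6.13 and 5.91 in E46 controls and 5.48, 5.36, 5.35 and 5.50 at the labelled 100. It fell by 0.60 ± 0.11 (adjusted p = 0.000129), with no overlap. In A2/12 it was higher and its groups overlapped: controls read 7.53, 7.76, 8.14 and 8.01, and serotonin arrays 7.62, 7.65, 7.33 and 7.57. The change there, -0.32 ± 0.11 (adjusted p = 0.0218), rests on single arrays. It missed the threshold without A2/12 control 3 (adjusted p = 0.106), control 4 (0.0749) or serotonin replicate 3 (0.0924), with A2/12 fitted alone (0.0703) or with the scan row as a block (0.174). The responses of the lines did not differ beyond the threshold (-0.28 ± 0.16, interval -0.61 to 0.04, adjusted p = 0.23).

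Pde4a passed the test in E46 and missed it in A2/12. In E46 it read 7.70, 7.78, 7.79 and 7.78 in controls and 7.32, 7.23, 7.37 and 7.39 at the labelled 100, a change of -0.43 ± 0.08 (adjusted p = 0.000199). In A2/12 it read 7.54, 7.15, 7.31 and 7.29 in controls and 7.18, 7.16, 7.35 and 7.17 with serotonin, and these overlapped (-0.11 ± 0.08, adjusted p = 0.335). The difference of responses was -0.32 ± 0.12 (adjusted p = 0.0517), and it passed the threshold in 6 of 32 alternative settings.

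Pde7a, whose product has a high affinity for cAMP like that of Pde7b, read 9.14, 9.28, 9.16 and 9.27 in E46 controls and 8.48, 8.46, 8.40 and 8.52 at the labelled 100. In A2/12 it read 8.69, 8.85, 8.98 and 9.05 in controls and 8.67, 8.48, 8.28 and 8.46 with serotonin. The groups were separate in both lines, by a small gap in A2/12. Pde7a fell by 0.75 ± 0.10 in E46 (adjusted p = 2.01e-06) and by 0.42 ± 0.10 in A2/12 (adjusted p = 0.00107), and the difference of responses did not pass (-0.33 ± 0.14, adjusted p = 0.0983). It passed in 4 of 32 alternative settings.

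Pde5a, the cGMP-specific enzyme inhibited by sildenafil, fell in A2/12 and did not pass the test in E46. It read 8.25, 8.05, 8.16 and 8.33 in A2/12 controls and 6.69, 6.57, 6.67 and 6.56 with serotonin, a change of -1.57 ± 0.10 (2.97-fold, adjusted p = 3.21e-11). In E46 it read 6.14, 6.59, 6.47 and 6.52 in controls and 6.67, 6.57, 6.75 and 6.57 at the labelled 100 (0.21 ± 0.10, interval -0.004 to 0.42, adjusted p = 0.119). The responses differed by 1.78 ± 0.14 (interval 1.48 to 2.07, adjusted p = 8.89e-09). At the labelled 100 the lines overlapped and their means differed by 0.01.

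Pde3a and Pde10a, enzymes of both nucleotides, lay near background, where changes are compressed. Pde3a was above background in A2/12 controls alone, at 4.78, 4.71, 4.95 and 4.57, and with serotonin it read 4.29, 4.01, 4.31 and 4.22, all below background. It fell at least 1.33-fold, from a mean of 4.75 to a measured mean of 4.21 (adjusted p = 0.00015). In E46 all arrays were below background, from 3.57 to 4.17, so no fall could be read there. The difference of responses, 0.42 ± 0.15 (adjusted p = 0.044), therefore does not compare 2 readable changes, and it missed the threshold in 20 of 32 alternative settings.

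Pde10a, which is most abundant in striatal neurons of the brain, read 4.57, 4.33, 4.45 and 4.78 in A2/12 controls and 4.05, 4.13, 4.17 and 4.18 with serotonin, all below background. It fell at least 1.14-fold, from a mean of 4.53 to a measured mean of 4.13 (adjusted p = 0.00132). In E46 it read 4.21, 4.28, 4.41 and 4.02 in controls and 4.28, 4.52, 4.59 and 4.50 at the labelled 100. These groups overlapped, and the rise of 0.24 ± 0.10 (adjusted p = 0.0489) missed the threshold in 18 of 26 alternative settings, among them median centring of the arrays and leaving out any of 6 single arrays. The difference of responses was 0.65 ± 0.14 (adjusted p = 0.00117), on measured values that lay below background in A2/12 with serotonin. The mean of the E46 controls, 4.23, was below background too, so no fall could be read in E46.

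For the difference of responses, 6 of 10 members passed, Pde3a, Pde4d, Pde5a, Pde7b, Pde8b and Pde10a (22.0% of all genes), and all 6 were positive, which 11.1% of all genes were. With only the 13491 genes above background tested, 4441 passed, 2218 of them positive. In that setting Pde4a passed too, with a negative difference (limma, adjusted p = 0.0356). For Pde7b this contrast contains the control levels that chose it, so its call is a description, and for Pde3a and Pde10a no fall could be read in E46. Without Pde7b and Pde8a, 5 of 8 passed.

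Serotonin labelled 1 changed no member of E46 beyond the threshold. By limma 0 of 10 were called (0.0106% of all genes, 0.00531% higher and 0.00531% lower), and 2 of 10, Pde4a and Pde8b, had an unadjusted p under 0.05, as did 2993 of 18820 genes. Without replicate 2 of the labelled 1 the calls over all genes went from 2 to 284 (1.51%), with 0 members among them. Pde4a read 7.37, 7.56, 7.47 and 7.68, below all controls (-0.24 ± 0.08, adjusted p = 0.219), and was the 1 member whose arrays did not overlap with controls (6.39% of all genes). Pde8b read 5.34, 5.66, 5.14 and 5.65 and overlapped with controls (-0.27 ± 0.12, interval -0.52 to -0.03, adjusted p = 0.276). Changes of the 10 members ran from -0.27 to 0.09. An absence of calls does not show that the levels were equal, since the median 95% interval of a change was ± 0.209.

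Set directly against the labelled 1, the labelled 100 gave lower levels of Pde4b (-0.49 ± 0.11, adjusted p = 0.00102), Pde4d (-0.54 ± 0.08, adjusted p = 4.87e-06), Pde7a (-0.68 ± 0.10, adjusted p = 7.13e-06) and Pde8b (-0.61 ± 0.12, adjusted p = 0.00025). That is 4 of 10 lower and, with Pde5a, 1 higher (41.4% of all genes were called, 17.8% lower and 23.6% higher). With only the 13491 genes above background tested, 7750 were called, 3186 lower and 4564 higher. In that setting Pde4a passed too (limma, adjusted p = 0.0478). The arrays of these groups did not overlap for 6 of 10 members (38.9% of all genes). Pde5a at the labelled 1 read 6.10, 6.50, 6.26 and 6.49, all below the labelled 100 (0.30 ± 0.10, adjusted p = 0.0203). That call was lost in 9 of 25 alternative settings, among them without serotonin labelled 100 replicate 3 or labelled 1 replicates 1 or 3. This comparison and the one against controls share the arrays of the labelled 100. If the doses of the description are used, the 6 calls against controls belong to arrays labelled 1.

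The order of the 5 group means differed between members. Pde5a ran from A2/12 controls, separate from the rest, down to 4 groups between 6.34 and 6.64 that overlapped with their neighbours. Pde8b ran from A2/12 controls (8.87 ± 0.10, SD) over A2/12 with serotonin (6.87 ± 0.13) to the E46 controls (5.72 ± 0.18), labelled 1 (5.45 ± 0.25) and labelled 100 (4.84 ± 0.19), and E46 controls and the labelled 1 overlapped. Pde4d ran from A2/12 controls (9.23 ± 0.06) over E46 controls (8.43 ± 0.06) and the labelled 1 (8.28 ± 0.18), which overlapped, to A2/12 (7.93 ± 0.04) and E46 (7.74 ± 0.08) at the labelled 100. Pde4b kept both A2/12 groups (7.86 ± 0.27 and 7.54 ± 0.15) above the 3 E46 groups (6.03 ± 0.10, 5.91 ± 0.14 and 5.42 ± 0.08). Pde7a was lowest in both groups with serotonin labelled 100, at 8.47 ± 0.16 in A2/12 and 8.46 ± 0.05 in E46, which overlapped. Pde4a was highest in E46 controls (7.76 ± 0.04) and the other 4 groups overlapped with their neighbours, from 7.52 to 7.21.

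Over all 20 arrays and 13490 genes above background, the values most like those of Pde7b were those of Aox3, an aldehyde oxidase (Pearson r = 0.996), Ntng1, which encodes netrin-G1 (r = 0.995), and Cpa6, a carboxypeptidase (r = 0.994). Aox3 had means of 7.95 in A2/12 controls, 4.08 in A2/12 with serotonin and 3.90 in E46 controls. The values most like those of Pde8a were those of Eif2s3y, a Y-linked translation factor subunit gene (r = 0.997), Ifi202b, an interferon-inducible gene (r = 0.997), and Podxl, which encodes podocalyxin (r = 0.995). Ifi202b had means of 8.42 in E46 controls and 3.35 in A2/12 controls. These are descriptions over arrays that share the same 2 lines, and they say nothing of shared control.

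Of the 14 other phosphodiesterase genes, 5 fell and 2 rose in each line, not all of them the same genes (39.6% of all genes were called in E46 and 45.9% in A2/12). The calcium and calmodulin-dependent enzymes fell in both lines: Pde1a (-2.05 ± 0.14 in E46 and -1.40 ± 0.14 in A2/12), Pde1b (-1.67 ± 0.14 and -0.79 ± 0.14) and Pde1c (-0.38 ± 0.08 and -1.31 ± 0.08, adjusted p from 1.66e-11 to 0.000583). Pde9a, a cGMP-specific enzyme, fell too (measured changes of -0.92 ± 0.13 and -0.69 ± 0.13). Its control means were 5.08 in E46 and 4.84 in A2/12. With serotonin all its arrays lay below background in both lines, at means of 4.16 and 4.15. The sizes of these falls could therefore not be read. Pde2a, which is stimulated by cGMP, read 8.72, 8.93, 8.81 and 8.94 in E46 controls and 6.87, 6.50, 6.27 and 6.52 at the labelled 100, a change of -2.31 ± 0.12 (4.95-fold, adjusted p = 4.67e-12). In A2/12 its change was 0.22 ± 0.12 (adjusted p = 0.151), and the responses differed by -2.52 ± 0.17 (adjusted p = 6.48e-10), opposite in sign to the 6 members above. Pde3b, the paralog of Pde3a, fell in A2/12 (-1.28 ± 0.08) and rose in E46 (0.28 ± 0.08), a difference of 1.55 ± 0.11 (adjusted p = 1.36e-09). Pde6g rose in both lines and Pde6h in A2/12, by at most 0.60. The median change of these 14 genes was -0.13 in E46 and 0.03 in A2/12.

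**Figure D4:**
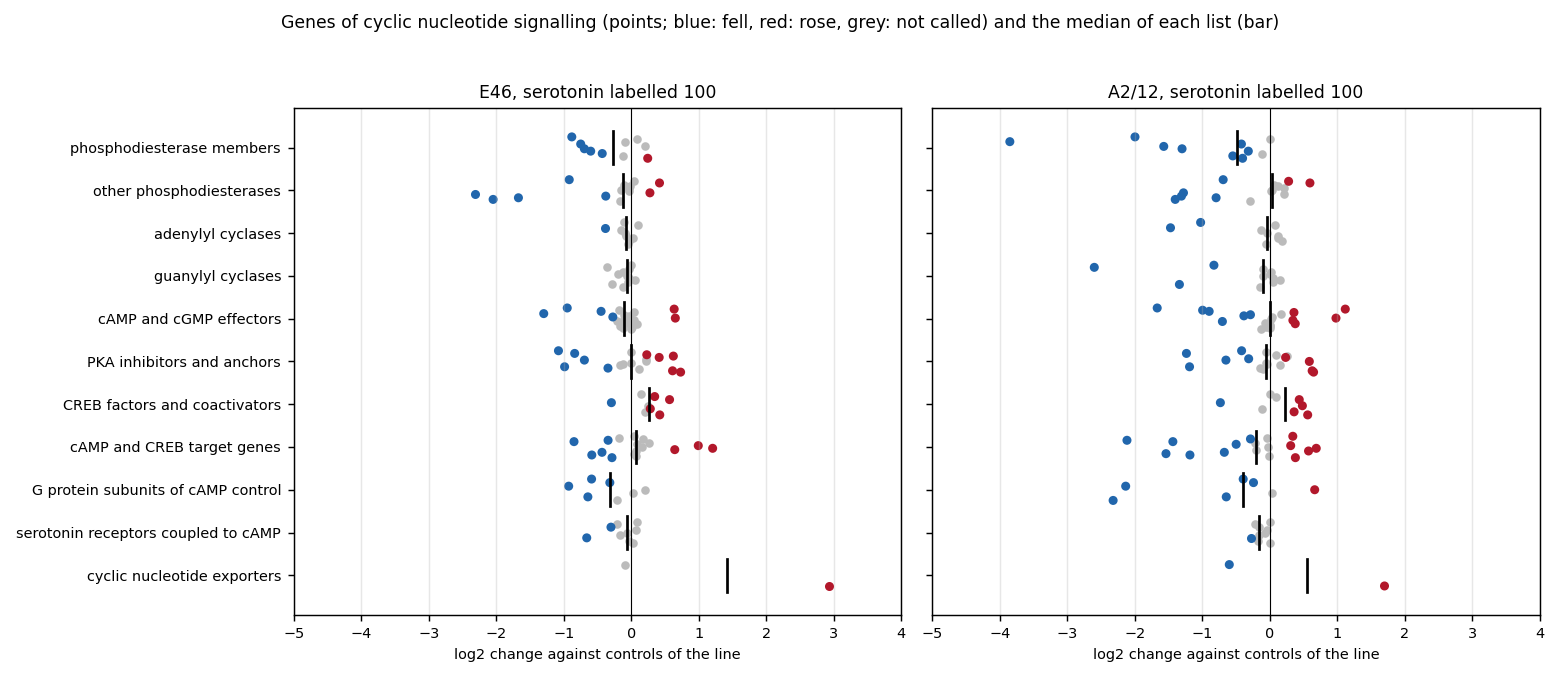
Each row is 1 list of genes of cyclic nucleotide signalling and each point 1 gene, at its log2 change with serotonin labelled 100 against the controls of E46 or A2/12; blue genes fell, red genes rose, grey genes did not pass the test, and black bars are medians of the lists. The phosphodiesterase members lie mostly left of 0, with medians of -0.28 and -0.48, and Abcc4 is the red point furthest right, at 2.94 and 1.70.

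Counts of the lists below stand beside shares of all genes called of 39.6% in E46 and 45.9% in A2/12, and nothing particular to a list is read from them. Of 9 measured adenylyl cyclases, which make cAMP, 1 fell in E46 and 2 in A2/12: Adcy7 in both (-0.39 ± 0.13, adjusted p = 0.0218, and -1.47 ± 0.13, adjusted p = 5.06e-09) and Adcy9 in A2/12 (-1.02 ± 0.12, adjusted p = 2.81e-07). Of 11 guanylyl cyclases, which make cGMP, and their subunits, 3 fell in A2/12: the natriuretic peptide receptors Npr1 (-2.60 ± 0.14) and Npr2 (-0.83 ± 0.06), and Gucy1a2, a subunit of the nitric oxide receptor (-1.34 ± 0.12). In E46, limma called 0 of 11, and 3 had an unadjusted p under 0.05. The responses of these 5 cyclases differed between lines (adjusted p from 3.48e-08 to 0.000343). Only 4 of the 9 adenylyl and 3 of the 11 guanylyl cyclase genes lay above background in at least 1 group. For the rest an absent call does not show an unchanged level.

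Among 20 measured receivers of the signal, 2 rose and 4 fell in E46, and 5 rose and 6 fell in A2/12. Of these 20, 12 lay above background in at least 1 group. Prkar1b, a regulatory subunit of protein kinase A, fell in E46 (-1.30 ± 0.09), and Rapgef3, the cAMP-activated exchange factor Epac, fell in both lines (-0.95 ± 0.11 in E46 and -1.67 ± 0.11 in A2/12). Prkg2, a cGMP-dependent kinase, rose by 0.64 ± 0.12 and 1.12 ± 0.12. Of 17 inhibitors and anchors of protein kinase A, 5 rose and 5 fell in E46, and 4 rose and 5 fell in A2/12. Pkia, an inhibitor, fell in both (-0.84 ± 0.13 and -1.23 ± 0.13), as did the anchor Akap13, while the anchor Akap10 rose by 0.61 ± 0.09 and 0.63 ± 0.09.

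Of 8 CREB factors and coactivators, 4 rose and 1 fell in each line; Crtc2 rose by 0.57 ± 0.08 and 0.44 ± 0.08 and Crtc1 fell (-0.29 ± 0.08 and -0.73 ± 0.08). Their 17 measured target genes were mixed, with 3 up and 5 down in E46 and 5 up and 7 down in A2/12. Ppargc1a fell in both lines (-0.85 ± 0.10 in E46 and -1.435 ± 0.10 in A2/12). In E46, Nr4a2 rose by 0.99 ± 0.11, Nfil3 by 1.21 ± 0.16 and Junb by 0.64 ± 0.10. In A2/12, Rgs2 (-2.12 ± 0.14), Egr1 (-1.54 ± 0.08) and Dusp1 (-1.18 ± 0.12) fell. Of 7 G protein subunits, 4 fell in E46, and 5 fell and 1 rose in A2/12, with Gnai1, which inhibits adenylyl cyclase, down in A2/12 (-2.32 ± 0.11) and Gnao1 down in both (-0.93 ± 0.07 and -2.13 ± 0.07). Of 9 serotonin receptors that act on cAMP, 5 lay above background in at least 1 group. Called lower were 2 in E46 (Htr1d and Htr5b) and 1 in A2/12 (Htr1d). Their control means were 4.77 and 4.63 in E46 and 4.45 in A2/12. With serotonin the means were below background, at 4.11, 4.33 and 4.16, so the sizes of these falls could not be read. Of 2 exporters of cyclic nucleotides, 1 rose in E46, and 1 rose and 1 fell in A2/12. Abcc4 rose by 2.94 ± 0.11 in E46 and by 1.70 ± 0.11 in A2/12 (adjusted p = 8.76e-14 and 2.62e-11), while most of the called phosphodiesterases fell. The other exporter, Abcc5, was not called in E46 and fell in A2/12 (-0.60 ± 0.10, limma, adjusted p = 3.21e-05).

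Markers of other cell kinds and array properties moved with serotonin too. Of 7 fibroblast markers 5 fell in each line. Their summed level on a log2 scale was 13.90 to 14.05 in E46 controls, 13.17 to 13.44 at the labelled 100, 14.43 to 14.55 in A2/12 controls and 13.18 to 13.36 with serotonin. Of 11 neuron markers 3 fell in E46, and 4 fell and 1 rose in A2/12. Their summed level was 10.82 to 10.98 in E46 controls, 9.64 to 9.94 at the labelled 100, 10.88 to 11.05 in A2/12 controls and 9.55 to 9.73 with serotonin. Map2 fell in both lines, while Thy1 went from 6.67 to 5.11 in E46 and from 5.04 to 5.42 in A2/12. Of 8 astrocyte markers 5 fell and 1 rose in E46 and 5 fell in A2/12. Their summed level was 11.22 to 11.32 in E46 controls, 10.96 to 11.05 at the labelled 100, 9.70 to 10.01 in A2/12 controls and 9.28 to 9.52 with serotonin. Of 5 smooth muscle markers 3 fell in E46, and 1 fell and 2 rose in A2/12. Their summed level was 12.77 to 12.92 in E46 controls, 10.76 to 11.43 at the labelled 100, 12.31 to 12.36 in A2/12 controls and 11.68 to 11.98 with serotonin. All these sums add unlogged levels, so the brightest genes weigh most, such as Map2 among neuron markers in controls. In A2/12 the mean of Acta2 went from 12.1 to 11.46, while those of Tagln, Myh11, Des and Cnn1 were higher with serotonin. The shares of all genes called were again 39.6% in E46 and 45.9% in A2/12. The part of these markers in the changes of the phosphodiesterases was not tested. Summed macrophage markers stood at 10.56 in A2/12 control 4 against 8.16 to 8.39 in the other A2/12 controls, and summed intestinal markers at 8.06 in E46 control 3 against 7.36 to 7.54. Without both arrays all 6 members called in E46 were still called, and 7 of the 8 in A2/12, Pde4b being the exception (adjusted p = 0.0807).

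Scan names carry a position number (5, 7 or 9) that each holds every group, and a row letter. Of 7 rows, 4 hold 1 group only and 3 hold a pair of groups. Rows A to D hold E46 alone and rows E to G A2/12 alone, so differences in level between the lines cannot be told apart from the row. Within position 5, 7 and 9 the difference of Pde7b in A2/12 was -4.35, -3.47 and -3.86, that of Pde8b -2.12, -1.75 and -2.19, that of Pde5a -1.61, -1.42 and -1.59, and that of Pde4d -1.22, -1.30 and -1.39. All 14 calls of members against controls at the labelled 100, in both lines, had the same sign in each of the 3 positions. For 5 of them in E46 and 7 in A2/12, Pde7b included, the groups did not overlap. Any subset of arrays then had to give the same sign, so only Pde10a in E46 and Pde4b in A2/12 could have differed.

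Within the row that A2/12 control 4 shares with serotonin replicates 1 and 2, the difference was -3.59 for Pde7b, -2.003 for Pde8b, -1.70 for Pde5a and -1.34 for Pde4d. Within the row that E46 control 4 shares with replicates 1 and 2 of the labelled 100, it was -0.85 for Pde8b, -0.80 for Pde7a, -0.73 for Pde4d and -0.49 for Pde4b. Within its row every one of the 14 calls kept its sign, on 1 control array each. As for the positions, only Pde10a in E46 and Pde4b in A2/12 could have changed sign. With the row as a block, 6 members were called in A2/12 (31.0% of all genes) and 4 in E46 (20.9%). The calls lost were Pde3a (adjusted p = 0.101) and Pde4b (0.174) in A2/12 and Pde4b (0.0915) and Pde10a (0.0727) in E46. For the difference of responses 4 were called (8.00% of all genes), without Pde3a (0.405) and Pde4d (0.0672). Against the labelled 1 the row block kept 2 calls of the labelled 100, Pde5a and Pde7a (37.0% of all genes), and Pde4b (0.181), Pde4d (0.0508) and Pde8b (0.0997) missed the threshold. These adjusted p-values are limma's.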

How the data were processed

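Total RNA of 20 samples in 5 groups of 4 was measured on Affymetrix gene arrays. The deposited log2 values were made with RMA, per the submitters' processing notes, which corrects background, normalizes between arrays and summarises each probe set. Its version is not stated in the notes used here. Of 35556 probe sets, 21218 have 1 gene symbol in the array annotation, 1881 several and 12457 none. The latter 2 kinds were left out. Where a gene had several probe sets, the brightest on average was kept, which gave 18820 genes. Groups follow the titles.

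limma 3.58.1 (R 4.3.3) estimated a mean for every group from all 20 arrays together, leaving 15 residual degrees of freedom. Moderated tests (eBayes) were adjusted over all genes by Benjamini-Hochberg, and calls are adjusted p-values below 0.05. With 4 arrays a group the median 95% interval was ± 0.209 for a change and ± 0.296 for the difference of responses. The code was tested on simulated data. Plots used matplotlib 3.10.9 (Python 3.11.15).

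The members and gene lists were chosen with earlier results of these data known. Named are the members, the other phosphodiesterases that were called, up to 4 genes of each list with the smallest adjusted p among those called, and the 3 genes most like Pde7b and Pde8a over the arrays. Alternatives were other fits, weights, scalings, filters, probe sets, blocks, doses and left-out arrays. Leaving out 4 arrays of low upper quartile or 2 control arrays together, and the scan row as a block, were chosen after seeing the data. Where a group of a member lay below background on every array, a fold was computed against the background as a lower bound. Promoter windows came from RefSeq, and the part after the transcription start is not shown.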

Additional observations from a re-analysis of the deposited data

Results flagged for a closer look

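In 50 groups of 4 arrays examined over the members, 2 held an array far from the other 3 (by Dixon's test at 95%, which chance passes in about 1 of 20 groups). Pde4a read 7.6953 on E46 control 1 against 7.7754 to 7.786 on the other E46 controls. On A2/12 serotonin replicate 3 it read 7.348 against 7.1569 to 7.1799.

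The responses of the lines to serotonin labelled 100 differed by limma's interaction term for Pde3a (E46 minus A2/12, 0.4247), Pde4d (0.6044), Pde5a (1.776), Pde8b (1.115) and Pde10a (0.6456). For Pde3a all 12 E46 arrays lay below background, so no fall could be read there, and the call was lost in 20 of 32 alternative settings. For Pde10a the mean of the E46 controls lay below background, so no fall could be read in E46 either. For Pde7b the difference was 3.762, given as a description since it contains the control levels by which the gene was chosen.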

How the results depend on the processing

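Over 1330 alternative values of member changes, 1197 kept their side of the threshold, 116 lost a call, 17 gained one and 0 called changes turned their sign. Fitted within position 5, 7 or 9 alone, where a group has 1 or 2 arrays and a lone array is assumed to vary like the others, fewer members were called. The counts at positions 5, 7 and 9 were 3, 4 and 0 for E46 labelled 100 (6 in the report), with 16.9%, 18.4% and 4.63% of all genes called. They were 2, 1 and 0 for labelled 100 against 1 (5), with 10.9%, 27.1% and 7.28% of all genes. They were 4, 5 and 4 for A2/12 (8), with 22.1%, 37.5% and 9.90%, and 3, 3 and 1 for the difference of responses (6), with 4.71%, 8.46% and 0.388%. A tested change of at least 1.5-fold left 0, 0, 4 and 2 members, in the same order, and 8.21%, 7.84%, 13.8% and 4.20% of all genes. With the scan row as a block, chosen after seeing the data, 2 members were called for labelled 100 against 1, with 37.0% of all genes. With the doses of the description, 0 members were called for E46 labelled 100. The difference of responses was not fitted with those doses. Leaving out each array in turn gave 5 to 6, 4 to 5, 7 to 8 and 5 to 7 calls, and 0 throughout for E46 labelled 1. Deviations of same-numbered arrays from their group means correlated at r from -0.55 to 0.406 (median -0.014, over 0.1 for 14 of 40 pairs). Arrays of different numbers were not set beside them, so whether the numbers pair the arrays was not tested. With the replicate block 5, 5, 8 and 6 members were called, and 0 at the labelled 1. Pde10a in E46 was the call it lost (adjusted p = 0.0535).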
